A study of Mus musculus with 12 samples.

Results

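Transcripts of 43 genes of the nuclear receptor superfamily were followed in mouse pluripotent stem cells that differ in Tbx3, a T-box transcription factor that acts mainly as a repressor. The members were the array probes, controls left out, that carry one of the 43 gene names. A gene was kept where a probe was well above background, by the scanner's own call, on all arrays of at least 1 group, and its brightest such probe stood for it. By this rule 34 of the 43 receptor genes were kept, among 17941 kept genes of the 24043 named genes on the array. The 43 genes had 68 probes, and 23 of them rested on 1 probe.

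RNA was measured on 12 one-colour Agilent arrays in 4 groups. Mouse embryonic stem cells (mESC) were labelled Tbx3-high on 4 arrays and Tbx3-low on 4 arrays. Mouse induced pluripotent stem cells (iPSC), made by reprogramming other cells to pluripotency, were labelled Tbx3 null on 2 arrays and Tbx3 wildtype on 2 arrays. No further genotype, strain, treatment or age is given for any group, and the labels do not say how high and low cells were told apart, what the null allele lacks or how many iPSC lines there were. Whether the arrays of a group stand for separate cultures is not said either, so the p-values cover just the spread between these samples, which may be technical.

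Nuclear receptors are transcription factors that mostly bind a small lipid-soluble ligand in one domain and DNA in another. Steroid receptors bind DNA as pairs of themselves, while receptors for retinoic acid, thyroid hormone, vitamin D, oxysterols and fatty acids pair with a retinoid X receptor and recruit corepressors or coactivators depending on the ligand. Orphan receptors have no settled ligand. In pluripotent cells some receptors act within the network that holds self-renewal, and others are known for shutting it down when cells differentiate.

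Tbx3 itself, read as a percentage of each array's 75th percentile of signal (the scale of every level below), lay at 13090 to 13872% on the Tbx3-high and 5265 to 5411% on the Tbx3-low arrays. It lay at 4564 and 4476% on the arrays labelled null and at 3190 and 4087% on the wild-type arrays. The mESC labels thus match the Tbx3 signal (log2 change 1.33 ± 0.07 SE, limma adjusted p = 1.9e-07), whereas Tbx3 was not lower on the null-labelled arrays (0.32 ± 0.10, adjusted p = 0.03). Whether this probe lies in the deleted part is not known, so it does not check the null label, and directions in iPSC follow the labels. The 75th percentile signal was 313.8 to 457.7 intensity units on mESC and 699.8 to 1007.4 on iPSC arrays. Spots well above background made up 55.9 to 64.8% on mESC, 62.4 to 63.0% on null-labelled and 68.0 to 68.6% on wild-type arrays, and no spot was saturated. The number of arrays limits the precision. All 11 pluripotency markers examined were well above background on every array. In the mESC, the Tbx3-high arrays lay in other slide columns than the Tbx3-low arrays, and in the iPSC the null-labelled arrays lay in other columns than the wild-type arrays, so column and group cannot be told apart.

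The promoters of 5 receptors are shown because these genes carry the results that follow: Nr1h5 and Esr1 were well above background in wild-type but not in null-labelled iPSC, and Nr2f6, Nr1d1 and Nr6a1 were called in both comparisons with opposite signs. Each line gives the 250 bases before a RefSeq transcript start of mouse build GRCm38.p6, 5′ to 3′ on the gene's strand. Esr1 and Nr6a1 each have 2 windows, and the one of lower coordinate is printed. Capitals mark the nuclear receptor half-site AGGTCA, read on either strand.
Nr1h5 (chr3:102964134-102964383, minus strand): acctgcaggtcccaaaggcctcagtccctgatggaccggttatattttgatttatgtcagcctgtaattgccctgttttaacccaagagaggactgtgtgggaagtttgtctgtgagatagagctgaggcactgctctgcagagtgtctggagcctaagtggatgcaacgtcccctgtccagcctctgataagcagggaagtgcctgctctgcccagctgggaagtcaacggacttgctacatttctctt
Esr1 (chr10:4611739-4611988, plus strand): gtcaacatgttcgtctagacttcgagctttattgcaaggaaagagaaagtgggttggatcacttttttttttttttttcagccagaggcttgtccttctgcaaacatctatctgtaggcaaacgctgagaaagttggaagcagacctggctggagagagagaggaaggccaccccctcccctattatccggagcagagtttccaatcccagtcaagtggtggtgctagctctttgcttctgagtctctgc
Nr2f6 (chr8:71381953-71382202, minus strand): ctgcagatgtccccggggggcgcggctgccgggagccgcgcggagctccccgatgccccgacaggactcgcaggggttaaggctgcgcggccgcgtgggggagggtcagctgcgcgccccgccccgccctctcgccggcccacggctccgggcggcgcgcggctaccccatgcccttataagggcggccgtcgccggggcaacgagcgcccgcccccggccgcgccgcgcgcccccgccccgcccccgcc
Nr1d1 (chr11:98775378-98775627, minus strand): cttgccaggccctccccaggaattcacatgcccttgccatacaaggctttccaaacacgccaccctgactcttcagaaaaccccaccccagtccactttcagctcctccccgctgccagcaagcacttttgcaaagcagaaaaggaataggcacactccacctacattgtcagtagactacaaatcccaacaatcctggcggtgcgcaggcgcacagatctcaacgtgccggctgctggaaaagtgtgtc
Nr6a1 (chr2:38784516-38784765, minus strand): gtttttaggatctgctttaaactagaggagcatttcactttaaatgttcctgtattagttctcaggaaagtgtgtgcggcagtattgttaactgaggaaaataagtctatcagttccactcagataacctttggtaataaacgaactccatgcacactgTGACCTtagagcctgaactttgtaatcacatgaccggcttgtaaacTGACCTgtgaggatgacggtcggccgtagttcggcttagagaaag

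Windows were found for 39 of the 43 genes, 57 windows in all. The half-site AGGTCA occurred in 9 of these 57 (15.8%) and in 14.0% of the 32851 windows of all genes. Of the printed windows, the one of Nr6a1 held it, at 2 places that start 91 and 45 bases before the transcript start, both on the opposite strand. The other windows of Nr6a1 and Esr1 held none. The T-box half-site AGGTGTGA occurred in 1 receptor window (1.75%, in Pparg) against 1.12% of all windows, and the E-box CACGTG in 5 (8.77%) against 6.02%. Neither occurred in a printed window. The motifs were searched on both strands, and AGGTCA and AGGTGTGA share their first letters but cannot both match in full at the same start. The printed windows held from 3 CpG dinucleotides in Nr1h5 to 42 in Nr2f6, where the median was 12 over the receptor windows and 6 over all windows. The probes themselves were placed on build mm9 by the scanner files, which is another build than that of the promoter windows.

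Of the 34 kept receptors, 28 were well above background on all 12 arrays. By group, 29 were so on all Tbx3-high, 30 on all Tbx3-low, 30 on all null-labelled and 34 on all wild-type arrays. The 9 receptors not kept were Thrb, a thyroid hormone receptor, Nr1h4, the bile acid receptor FXR, Nr1i2, the xenobiotic sensor PXR, Hnf4g, Nr2e1, Pgr, the progesterone receptor, Esrrg, Nr4a3 and Nr0b2, which lacks a DNA-binding domain. Of these 9, 4 were not well above background on any array. In 4 of the kept receptors the iPSC alone gave the basis. Rarb, a retinoic acid receptor, was kept through both iPSC groups, and Esr1, Nr2e3 and Nr3c2, the mineralocorticoid receptor, through the wild-type iPSC. By role, 8 of 9 thyroid hormone, retinoid and vitamin D receptors, 7 of 10 lipid, sterol and xenobiotic sensors, 4 of 4 clock receptors, 8 of 9 testicular, COUP-TF and other orphan receptors, 4 of 5 steroid receptors, 1 of 2 estrogen-related receptors and 2 of 3 NR4A receptors were kept.

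**Figure D1:**
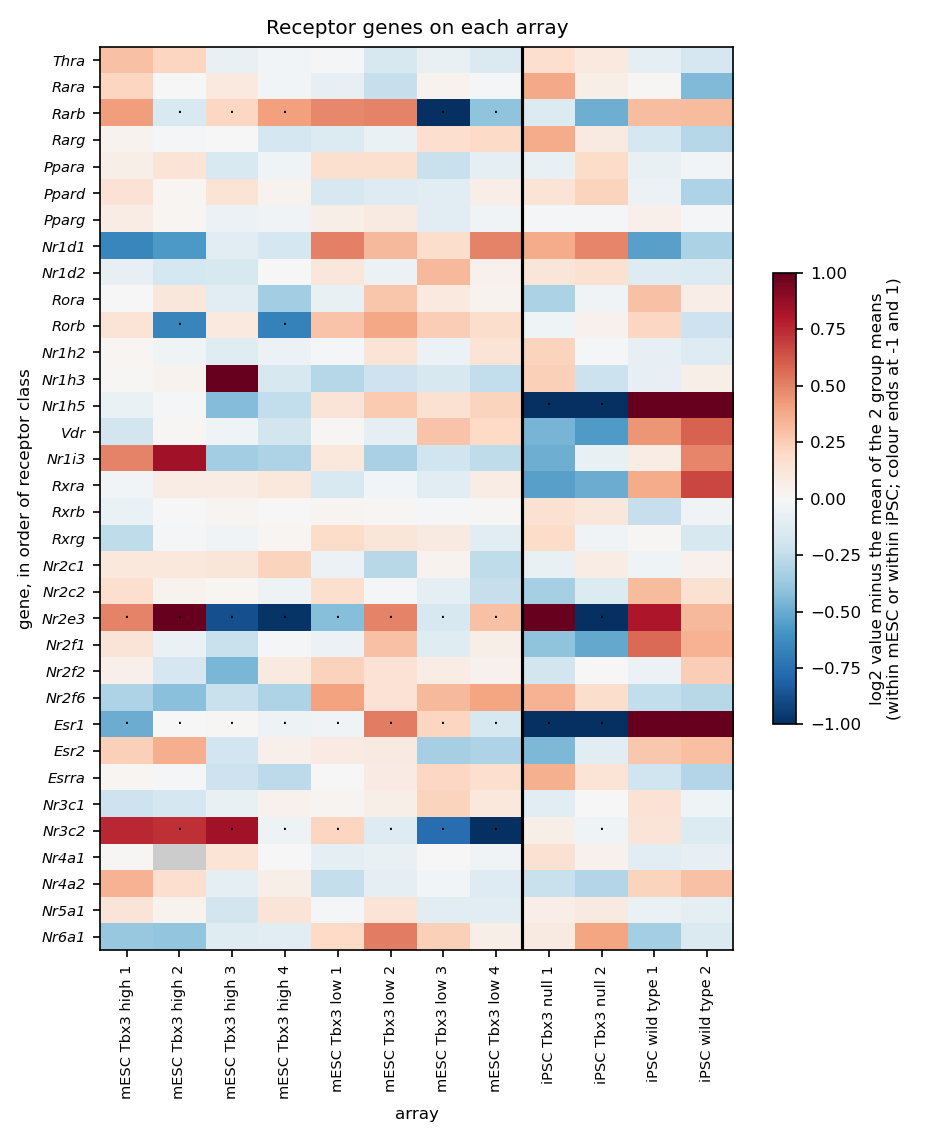
Each cell is a log2 value of 1 kept receptor gene (34 rows, by receptor class) on 1 of the 12 arrays (columns), minus the mean of the 2 group means within mESC or within iPSC, with the colour ending at -1 and 1. A dot marks a spot not well above background and grey a spot left out. Nr1h5 and Esr1 stand out in the iPSC columns, and Nr1d1, Nr2f6 and Nr6a1 are blue on the Tbx3-high and red on the null-labelled arrays.

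Between Tbx3-high and Tbx3-low mESC 24 of 30 receptors did not pass the test. Of the 6 that did, 5 were lower in the Tbx3-high cells, a share of the 30 near that over all genes. Nr2f6, Nr1d1 and Nr6a1 had the lowest adjusted p. The question was which transcripts go with a high or low Tbx3 state. A gene is called here where its limma p, adjusted by Benjamini-Hochberg over all genes tested, is under 0.05. Of 30 receptors tested, 6 were called (20.0%), against 34.6% of the 15887 genes tested. Lower in Tbx3-high cells were 5 of the 30 (16.7%), against 15.1% of all genes tested, and higher was 1 (3.33%), against 19.4%. In bulk samples fewer cells of a type and less RNA per cell cannot be told apart. The median log2 change was -0.05 over the 30 receptors and 0.04 over all genes, and the median absolute change 0.20 and 0.19. The groups did not overlap in 7 receptors (23.3%), against 35.5% of all genes. With slide row as a block 10 receptors were called, 4 higher and 6 lower, and within slide row 2 alone 3. The share over all genes is not set beside these counts, so they are not read as a result about the receptors.

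Nr2f6, an orphan receptor of the COUP-TF family, read 535, 496, 568 and 535% on the Tbx3-high arrays. On the Tbx3-low arrays it read 878, 731, 829 and 869%, so every Tbx3-low array was above every Tbx3-high array. Its log2 change was -0.63 ± 0.08 (SE; limma adjusted p = 6.9e-05), and the call was kept under every alternative run. Its probe lies at chr8:73898098-73898157 on mm9.

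Nr1d1 encodes REV-ERB alpha, a heme-binding repressor of the circadian clock. It read 19.3, 20.5, 28.2 and 27.0% on the Tbx3-high arrays and 43.1, 38.2, 34.5 and 43% on the Tbx3-low arrays. The groups did not overlap, and the first 2 Tbx3-high arrays, in slide row 1, were lower than the other 2, in row 2. The change was -0.75 ± 0.13 (limma adjusted p = 0.000933), with -1.03 (adjusted p = 0.00206) in row 1 alone and -0.48 (adjusted p = 0.0632) in row 2 alone. Its probe (chr11:98630526-98631028, mm9) is near that of Thra, which is transcribed from the opposite strand. Of the other clock receptors, Nr1d2, or REV-ERB beta, changed by -0.21 ± 0.08 (limma adjusted p = 0.0747) and Rora by -0.16 ± 0.12 (adjusted p = 0.307). Rorb read 3.98, 2.29, 3.88 and 2.28% on the Tbx3-high arrays, where it was well above background on 2 of 4, and 4.42, 4.75, 4.31 and 4.10% on the Tbx3-low arrays. It was called lower (-0.55 ± 0.19, limma adjusted p = 0.0403), but lost the call under 14 of 25 alternatives, over which the adjusted p ran from 0.0149 to 0.615. These included each omission of a Tbx3-low array (0.0575 to 0.0913), of Tbx3-high replicate 2 (0.107) or 4 (0.108) and of null-labelled replicate 1 or 2 (0.0521 each).

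Nr6a1, the germ cell nuclear factor known as a repressor of Pou5f1 during differentiation, read 30.7, 30.6, 36.9 and 37.1% on the Tbx3-high arrays. It read 46.0, 57.1, 47.4 and 41.8% on the Tbx3-low arrays. The groups did not overlap, and the change was -0.50 ± 0.11 (limma adjusted p = 0.00543). Within slide row 1 it was -0.74 (adjusted p = 0.011) and within row 2 -0.26 (adjusted p = 0.112). Nr1h5, or FXR beta, a sterol-binding relative of the bile acid receptor, read 2067, 2134, 1604 and 1830% on the Tbx3-high and 2373, 2603, 2400 and 2526% on the Tbx3-low arrays. All Tbx3-high values were below all Tbx3-low values, at a change of -0.38 ± 0.10 (limma adjusted p = 0.0139), with -0.24 (adjusted p = 0.103) in row 1 and -0.52 (adjusted p = 0.0277) in row 2.

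The receptor that was higher in Tbx3-high cells was Nr2c1, the testicular receptor TR2, which binds direct repeats and represses embryonic globin genes. It read 69.3, 69.2, 69.5 and 74.6% against 61.6, 52.8, 65.8 and 53.8%. The groups did not overlap, at a change of 0.28 ± 0.08 (limma adjusted p = 0.0201), and its second probe gave 0.24 ± 0.10 (p adjusted over probes = 0.112). The call was lost without Tbx3-low replicate 2 (adjusted p = 0.06) or 4 (0.0577), without Tbx3-high replicate 4 (0.0571) and within each slide row (0.103 and 0.182), where its change was 0.28 both times.

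Among the hormone receptors no change in mESC passed in the setting used. With slide row as a block Nr3c1 (adjusted p = 0.0251), Esr2 (0.0443) and Thra (0.0466) passed, and with the mean of the probes Rxrg (5.2e-05), Rxra (0.0189) and Nr3c1 (0.0422). The retinoic acid receptors Rara and Rarg changed by 0.15 and -0.08 on the log2 scale, Thra by 0.20, Vdr, the vitamin D receptor, by -0.20 and the retinoid X receptors Rxra, Rxrb and Rxrg by 0.11, -0.02 and -0.14. The glucocorticoid receptor gene Nr3c1 changed by -0.21 ± 0.08 (limma adjusted p = 0.0625), and Esrra, an estrogen-related receptor of mitochondrial metabolism, by -0.23 ± 0.09 (adjusted p = 0.06). The 95% interval ran from -0.38 to -0.03 for Nr3c1 and from -0.42 to -0.04 for Esrra. Across all 24 receptors tested and not called, changes ran from -0.24 in Nr2f2 to 0.45 in Nr1h3. That of Nr1h3, the oxysterol receptor LXR alpha, carried an SE of 0.21 because replicate 3 of the Tbx3-high arrays read 31.0% and the other 3 read 13.7 to 15.7%. Nr4a1, an immediate early gene, did not overlap between the groups (0.11 ± 0.06, limma adjusted p = 0.234), with 3 Tbx3-high arrays, since its spot on replicate 2 carried an outlier flag and was left out.

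In iPSC the called receptors divided evenly between higher and lower, each at a share near that over all genes. The changes were larger than in mESC, for receptors and for all genes alike. The question was which transcripts go with the null label. Of 34 receptors tested, 14 were called (41.2%), against 38.0% of 17775 genes. Higher in null-labelled cells were 7 of the 34 (20.6%), against 21.5% of all genes tested, and lower were 7 (20.6%), against 16.5%. The 7 lower include Esr1 and Nr1h5, which entered this test through the wild-type iPSC alone. That even division depended on the scaling, with 3 of 10 called receptors higher after quantile normalization and 4 of 12 in the deposited log2 table. The share of higher calls over all genes is not set beside these counts or the next. A shift in them is thus not read as particular to the receptors. Without wild-type replicate 2, 9 receptors were called, 3 higher and 6 lower. The groups did not overlap in 24 of 34 receptors (70.6%), against 71.3% of all genes, with 2 arrays a side. The median log2 change was 0.01 over the receptors and 0.06 over all genes, and the median absolute change 0.39 and 0.32. In mESC the median absolute change was 0.20 over the receptors and 0.19 over all genes.

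Nr1h5 read 1304 and 1018% on the wild-type arrays and 0.5 and 0.541% on the null-labelled arrays, where it was not well above background. It was at least 487-fold lower in null-labelled iPSC (limma adjusted p = 1.3e-11). That bound sets the wild-type mean against the higher, on each null-labelled array, of the dimmest signal well above background and the probe's own signal. Nr1h5 entered the iPSC test through the wild-type arrays alone, where it is high. Its null-labelled values are at background, so this p is not read as support. Its probe lies at chr3:102743584-102743643 on mm9 and was well above background on all mESC arrays. Esr1, the estrogen receptor alpha, read 221 and 258% on the wild-type arrays, and 0.464 and 0.566% on the null-labelled arrays, not well above background. It was at least 101-fold lower (limma adjusted p = 2.6e-09). Esr1 passed the filter through the wild-type iPSC alone, the group where it is high. Its p therefore depends on the filter and on values at background, and is not read as support. All 8 mESC arrays were also not well above background for Esr1, at 0.575 to 0.823% in Tbx3-high and 0.727 to 1.16% in Tbx3-low cells. Of the 4 groups the wild-type iPSC alone were thus above background for Esr1. The mESC and iPSC arrays lie on separate slides, and this contrast between them was not tested. The Esr1 signal came from 1 probe (chr10:5489352-5489411, mm9), while its 3 other probes were not well above background on any array. Each of these calls was kept under every alternative run. The filter asking for signal well above background on all arrays left both genes out. With the null-labelled values at background, the kept calls add no support.

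**Figure D2:**
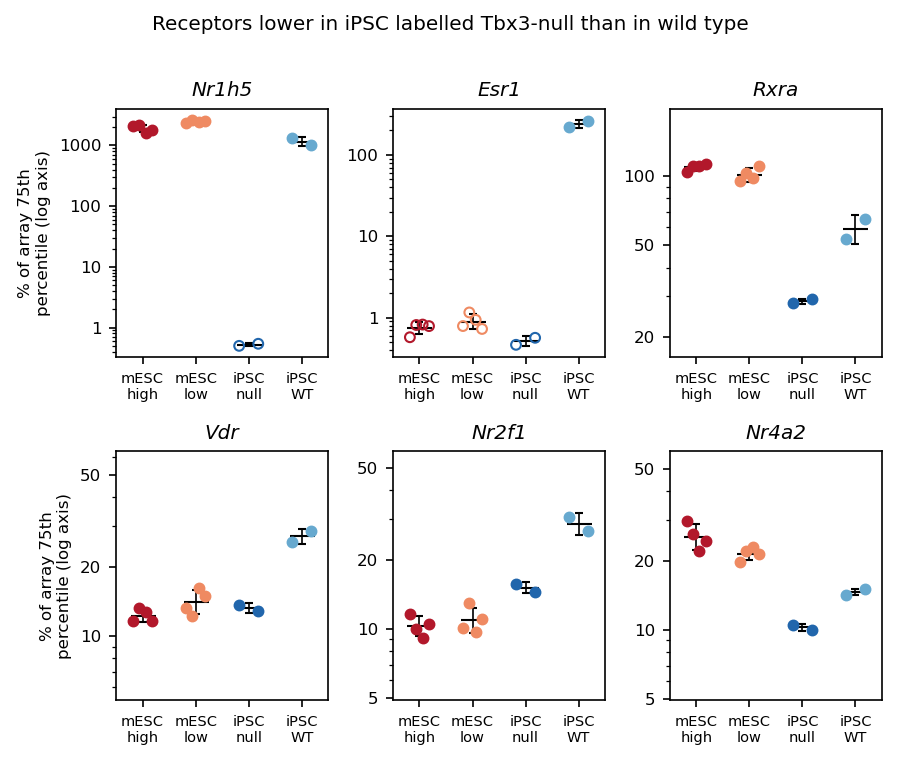
Level of 6 receptor genes on each array, as a percentage of the array's 75th percentile on log axes that differ between panels, in mESC labelled Tbx3-high or Tbx3-low (4 arrays each) and iPSC labelled Tbx3-null or wild type (2 arrays each). Filled points are well above background, open points are not, and black bars give the mean ± SD of the log2 values. Nr1h5 and Esr1 drop to open points in null-labelled iPSC, and Rxra, Vdr, Nr2f1 and Nr4a2 are lower there than in wild type.

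Because both changes were far larger than those of other receptors, the genes next to them were read in chromosome order, a choice made after the values were seen. Beside Nr1h5, Sycp1, a synaptonemal complex gene of meiosis, read 40.1 to 46.4% on the null-labelled and 426 to 455% on the wild-type arrays. Its change was -3.35 ± 0.17 (limma adjusted p = 2.7e-07), and in mESC it was also lower in the Tbx3-high cells (-0.95 ± 0.12, adjusted p = 8.6e-05). Sike1, on the other side of Nr1h5, changed by -0.40 ± 0.09 (limma adjusted p = 0.00535) and Tspan2 by -0.37 ± 0.12 (adjusted p = 0.0312), while Nras gave 0.30 ± 0.11 (adjusted p = 0.0588). Tshb was not well above background in null-labelled cells and at least 1.29-fold lower (limma adjusted p = 9.6e-05). It entered this test through the wild-type arrays alone, so that p is not read as support. Around Esr1, Ccdc170 changed by -0.82 ± 0.28 (limma adjusted p = 0.0426), Syne1 by -0.69 ± 0.15 (adjusted p = 0.0045), Armt1 by 0.47 ± 0.13 (adjusted p = 0.0136) and Fbxo5 by 0.38 ± 0.12 (adjusted p = 0.0289). The remaining neighbours of Esr1, Rmnd1 and Myct1, gave -0.11 and 0.04. In mESC Sike1 was higher in Tbx3-high cells (0.39 ± 0.07, limma adjusted p = 0.000872) and Ccdc170 lower (-1.0 ± 0.19, adjusted p = 0.00191). Besides these and Sycp1, no neighbour named here passed in mESC, where Tshb was not tested.

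**Figure D3:**
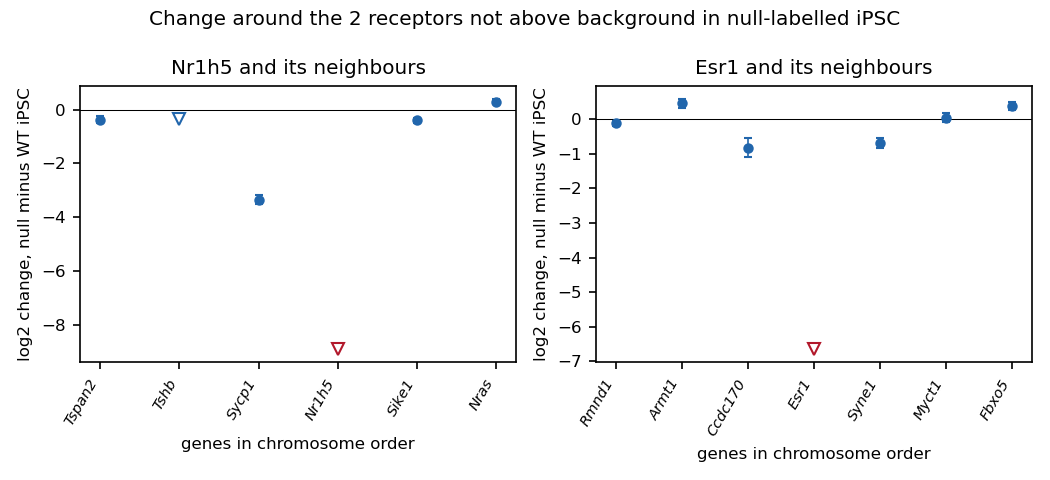
Log2 change in null-labelled minus wild-type iPSC (vertical axis) of Nr1h5 (left) and Esr1 (right), in red, and of genes on each side in chromosome order (horizontal axis). Filled points give the change ± SE, and open triangles give upper limits of genes not above background in null-labelled cells. Nr1h5 and Esr1 lie far below all neighbours, of which Sycp1 is the lowest.

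The retinoid X receptor gene Rxra, shared partner of many other receptors, read 28.2 and 29.1% on null-labelled and 53.0 and 65.1% on wild-type arrays. Its change was -1.04 ± 0.11 (limma adjusted p = 4.2e-05). Its second probe read another way, at -0.17 ± 0.19 in iPSC (p adjusted over probes = 0.581) and 0.47 ± 0.13 in mESC (0.0212). The fall of Rxra in iPSC was thus seen on the brighter of its probes. Rxrb moved the other way, at 1605 and 1551% against 1227 and 1400% (0.27 ± 0.08, limma adjusted p = 0.0212). That call was lost under 7 of 23 alternatives, among them quantile normalization (0.251), normexp background (0.0869), the deposited table (0.342), the iPSC arrays alone (0.167) and the omission of null-labelled replicate 1 (0.0999) or wild-type replicate 1 (0.167). Rxrg had probes that disagreed. The brighter gave 0.15 ± 0.13 in iPSC and -0.14 ± 0.09 in mESC, while the second gave 2.87 ± 0.21 in iPSC (p adjusted over probes = 5.2e-06) and -1.50 ± 0.14 in mESC (2.2e-05), where it was well above background on 2 of 4 Tbx3-high arrays. The 2 Rxrg probes lie at chr1:169569496-169569555 and chr1:169569624-169569683 on mm9.

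Vdr read 13.7 and 12.8% on null-labelled and 25.7 and 28.6% on wild-type arrays. The groups did not overlap, at a change of -1.04 ± 0.13 (limma adjusted p = 0.000147), kept under every alternative run. Of the retinoic acid receptors, Rarg, which is abundant in pluripotent cells, read 3344 and 2738% against 2285 and 2107% (0.46 ± 0.14, adjusted p = 0.0224). That call was lost under 6 alternatives, at adjusted p from 0.0527 to 0.169, among them the omission of null-labelled replicate 1 (0.169) and of wild-type replicate 1 (0.0527) or 2 (0.112). Rara gave 0.43 ± 0.16 (limma adjusted p = 0.0624). Rarb gave -0.62 ± 0.54 (adjusted p = 0.404), at 14.4 and 11.4% against 19.6 and 19.8%. Thra gave 0.27 ± 0.12 (limma adjusted p = 0.109).

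Nr2f1, or COUP-TFI, known for opposing retinoid signalling, read 15.7 and 14.5% on null-labelled and 30.7 and 26.5% on wild-type arrays. Its change was -0.92 ± 0.15 (limma adjusted p = 0.000795), and its second probe gave -1.0 ± 0.61 (p adjusted over probes = 0.272). The call was lost with the mean of its probes (adjusted p = 0.0579). Nr2c2, or TR4, read 172 and 196% against 270 and 239% (-0.47 ± 0.13, limma adjusted p = 0.0179), and its second probe gave -0.50 ± 0.17. The Nr2c2 call was lost with iPSC arrays alone (0.0511) and without null-labelled replicate 1 (0.122) or wild-type replicate 1 (0.121). Nr4a2, an immediate early receptor of dopaminergic neurons, read 10.5 and 9.99% against 14.2 and 15.0% (-0.51 ± 0.13, limma adjusted p = 0.00996). Its second probe gave -0.19 ± 0.28, and the call was lost with normexp background (0.387), in the deposited table (0.162), with the mean of its probes (0.0915) and without null-labelled replicate 2 (0.0534) or wild-type replicate 2 (0.0558).

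Higher in null-labelled cells were Nr2f6, Nr1d1, Nr6a1, Esrra and Ppard beside Rarg and Rxrb. Nr2f6 read 707 and 627% against 469 and 460% (0.52 ± 0.11, limma adjusted p = 0.00327). Nr1d1 read 32.6 and 35.4% against 17.3 and 20.2% (0.86 ± 0.19, adjusted p = 0.00483). Both groups were apart in both genes, and both calls were kept under every alternative run. Nr6a1 read 118 and 145% against 87.9 and 99.7% (0.49 ± 0.17, limma adjusted p = 0.0403). Its call was lost under 9 alternatives, at adjusted p from 0.0533 to 0.229, among them the omission of Tbx3-low replicate 1 (0.0533) or 3 (0.0534), null-labelled replicate 2 (0.229) or wild-type replicate 1 (0.201) or 2 (0.0629).

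Esrra read 1045 and 891% on null-labelled and 705 and 664% on wild-type arrays (0.50 ± 0.12, limma adjusted p = 0.00908). The call was lost in the deposited table (0.0656) and without null-labelled replicate 1 (0.0777) or wild-type replicate 2 (0.0541). Ppard, a fatty acid sensor, changed by 0.36 ± 0.11 (limma adjusted p = 0.0236), lost under 6 alternatives at adjusted p from 0.0545 to 0.172, the omission of null-labelled replicate 1 (0.0545) or 2 (0.109) or wild-type replicate 2 (0.172) among them. Esr2, the estrogen receptor beta, gave -0.56 ± 0.21 (limma adjusted p = 0.0541), at 325 and 412% against 533 and 547%. It passed under 8 of 23 alternatives, at adjusted p from 0.00645 to 0.0486, among them normexp background (0.00645), the deposited table (0.00858), the iPSC arrays alone (0.0405) and the omission of Tbx3-high replicate 2 (0.0486) or 3 (0.0372) or of null-labelled replicate 2 (0.0481).

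The other receptors tested in iPSC and not called were Ppara, Pparg, Nr1d2, Rora, Rorb, Nr1h2, Nr1h3, Nr1i3, Rxrg, Nr2c1, Nr2e3, Nr2f2, Nr3c1, Nr3c2, Nr4a1 and Nr5a1. Their changes lay between -1.14 ± 0.95 in Nr2e3, whose null-labelled arrays read 10.9 and 1.16%, and 0.27 ± 0.12 in Nr1d2. The glucocorticoid receptor gene Nr3c1 gave -0.11 ± 0.11, with an interval from -0.35 to 0.14. For Nr1i3, the xenobiotic sensor CAR, the probe used gave -0.56 ± 0.37, and a second probe that was above background in wild-type cells and not in null-labelled cells differed at a p adjusted over probes of 0.00361. That second probe entered through the wild-type arrays alone, so its p is not read as support.

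Nr2f6, Nr1d1 and Nr6a1 were called in both comparisons with opposite signs, lower in Tbx3-high than in Tbx3-low mESC and higher in null-labelled than in wild-type iPSC. They are 3 of 30 receptors tested in both (10.0%), against 1015 of 15721 genes (6.46%). Nr1h5 was lower in both, so 4 receptors were called in both (13.3%), against 18.6% of all genes. In total 13.0% of all genes were called in both with opposite signs, against the same 3 receptors (10.0%). Of these 3, Nr2f6 kept both calls under every alternative run. Nr1d1 lost its mESC call in slide row 2 alone (limma adjusted p = 0.0632). Nr6a1 lost its mESC call there as well (0.112) and its iPSC call under 9 of 23 alternatives.

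**Figure D4:**
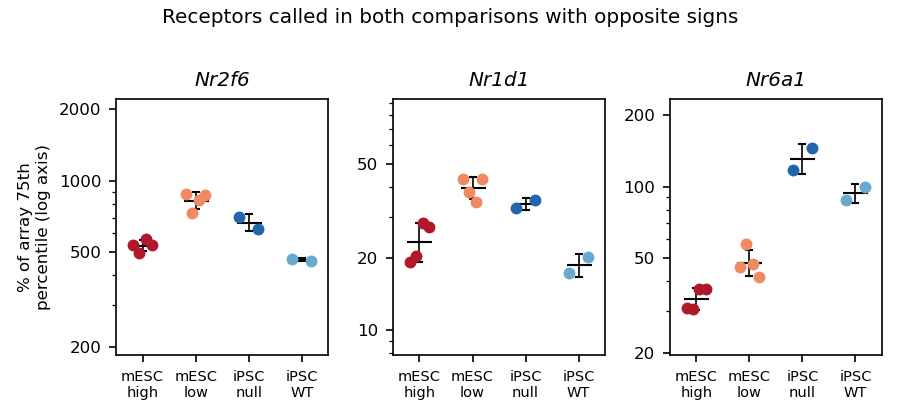
Level of Nr2f6, Nr1d1 and Nr6a1 on each array as a percentage of the array's 75th percentile (log axes that differ between panels), in the 4 groups, with the mean ± SD of the log2 values in black. In each panel the Tbx3-high points lie below the Tbx3-low points, and the null-labelled iPSC points lie above the wild-type points.

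The difference between the comparisons was tested by setting the Tbx3-high minus Tbx3-low change against the wild-type minus null-labelled change. Of 30 receptors tested in both comparisons, 8 were called (26.7%), against 35.5% of 15721 genes. Higher were 4 of the 30 (13.3%), against 21.4% of these genes, and lower were 4 (13.3%), against 14.1%. Over all 34 kept receptors 9 passed (26.5%), against 33.2% of 17941 genes, the ninth being Esr1, which has no measured change in mESC and is not read as a difference. Over those 34, after quantile normalization 1 of 7 called receptors was higher and, with the deposited log2 values, 2 of 10, while the share of higher calls over all genes was 58.0% in the setting used, 49.0% after quantile normalization and 47.2% in the deposited table. The lower ones were Nr1h5 (at most -9.31, with null-labelled cells at the bound given above), Vdr (-1.24 ± 0.16, limma adjusted p = 0.000285), Nr2f1 (-1.0 ± 0.18, adjusted p = 0.00226) and Rxra (-0.93 ± 0.14, adjusted p = 0.000559). The call of Nr2f1 (0.089) and of Rxra (0.12) was lost with the mean of the probes. Those 4 receptors had changes in iPSC beyond -0.9, whereas their mESC changes ran from -0.38 to 0.11. The higher ones were Ppard (0.53 ± 0.13, limma adjusted p = 0.0121), Thra (0.47 ± 0.15, adjusted p = 0.0358), Rara (0.58 ± 0.20, adjusted p = 0.0494) and Nr4a1 (0.30 ± 0.10, adjusted p = 0.0468, with 3 Tbx3-high arrays). The call of Ppard was lost without wild-type replicate 2 (0.0572). That of Thra was lost under 14 of 23 alternatives, at adjusted p from 0.0509 to 0.173, among them the omission of Tbx3-low replicate 2, 3 or 4, of Tbx3-high replicate 2 and of each iPSC array. That of Rara was lost under 16 of 23, up to 0.215, among them the omission of each mESC array, of null-labelled replicate 1 and of wild-type replicate 2. That of Nr4a1 was lost under 17 of 22, up to 0.55, among them the omission of each mESC array but Tbx3-high replicate 2 and of each iPSC array but null-labelled replicate 2, and it was lost with the flagged spot kept (0.446).

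**Figure D5:**
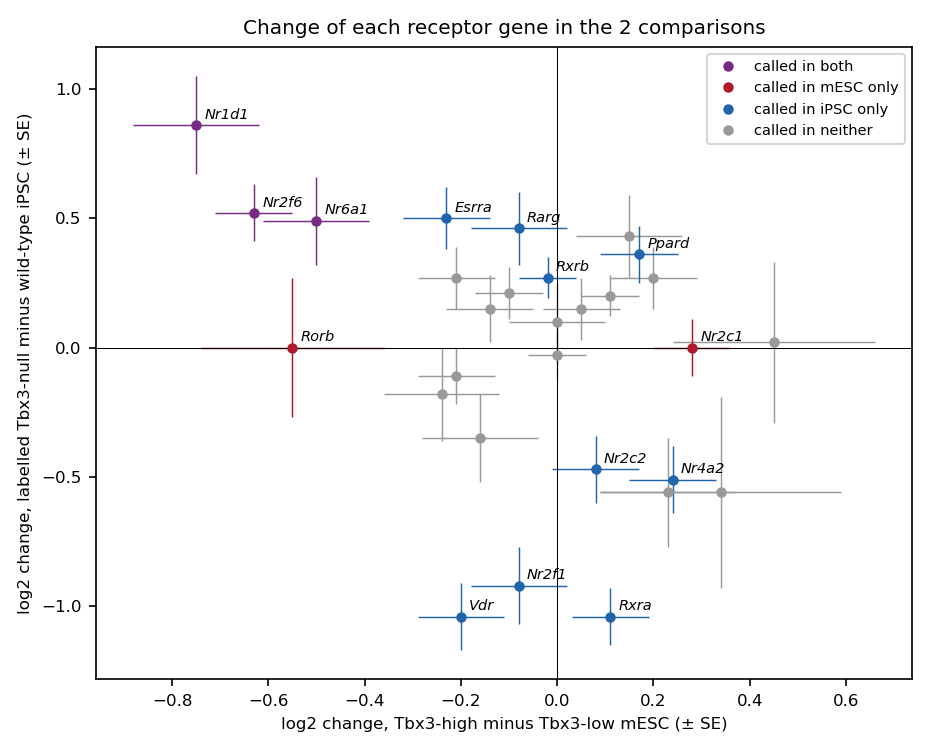
Log2 change of 29 receptor genes tested in both comparisons, Tbx3-high minus Tbx3-low mESC (horizontal axis) and labelled Tbx3-null minus wild-type iPSC (vertical axis), with bars for ± 1 SE and colours for the comparison in which limma called the gene. Nr1h5 is left out because it is not above background in null-labelled cells. Nr2f6, Nr1d1 and Nr6a1 lie at the upper left, and Rxra, Vdr and Nr2f1 lie low with mESC changes near 0.

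Further genes of nuclear receptor signalling were read from lists of textbook members, each set beside the 34.6% of all genes called in mESC and the 38.0% called in iPSC. Of 6 further receptors, 5 were tested in mESC and 4 were higher in Tbx3-high cells. They were Hnf4a (0.77 ± 0.09, limma adjusted p = 4.6e-05), Nr0b1 (0.65 ± 0.09, adjusted p = 0.000223), Nr5a2 (0.56 ± 0.07, adjusted p = 0.000109) and Esrrb (0.50 ± 0.07, adjusted p = 0.000169), the last 3 known parts of the pluripotency network. In iPSC 1 of 6 was higher and 2 lower in null-labelled cells, with Hnf4a at -1.13 ± 0.13, Nr5a2 at -0.65 ± 0.10 and Nr0b1 at 0.38 ± 0.13 (limma adjusted p = 6.0e-05, 0.000584 and 0.0421).

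Of coregulators, 5 of 16 coactivators were higher and none lower in Tbx3-high mESC (median change 0.01), led by Prmt1 (1.36 ± 0.39), Ncoa3 (0.36 ± 0.08) and Ncoa7 (0.36 ± 0.12). In iPSC 2 of 16 were higher, with Carm1 at 0.93 ± 0.11, and 4 lower, with Ncoa6, Ncoa2 and Ncoa1 at -0.56, -0.55 and -0.52. Of 16 corepressors 2 rose and 2 fell in mESC, with Tbl1x at -0.32 and Gps2 at 0.28. In iPSC 8 rose and 3 fell (median 0.26), with Hr at 1.36 ± 0.14, Tle1 at 1.11 ± 0.07 and Nrip1 at -0.51 ± 0.13. Of 10 chaperones that hold steroid receptors ready for ligand, none rose and 1, Fkbp4 (-0.31), fell in mESC, while 5 rose in iPSC, with Stip1 at 0.46 and Fkbp4 at 0.38.

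Targets of retinoic acid receptors moved both ways. In mESC 4 of 11 tested rose and 4 fell, with Cdx1, a homeobox gene, at 2.84 ± 0.10 (limma adjusted p = 8.7e-09), Tgm2 at 1.59 ± 0.10, Dhrs3 at 0.71 ± 0.09 and Crabp2 at -1.12 ± 0.10. In iPSC 4 of 13 rose and 6 fell, with Dhrs3 at -2.14 ± 0.13 (adjusted p = 9.4e-07), Tgm2 at -2.07 ± 0.14, Stra8 at -1.37 ± 0.12 and Cyp26a1, which clears retinoic acid, at 1.79 ± 0.47. Of thyroid hormone receptor targets 3 of 5 rose and 1 fell in mESC, with Thrsp at 0.72 and Dbp at -0.69, and 5 of 6 rose and 1 fell in iPSC, with Hr at 1.36, Dbp at 1.35, Klf9 at 1.02 and Me1 at -1.01. Hr, Klf9, Dbp, Nrip1, Per1 and Fkbp5 each stand on more than 1 of the lists.

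Targets of the lipid sensors included cholesterol and fatty acid genes. Of 10 liver X receptor targets 5 rose and 1 fell in mESC, with Abca1, a cholesterol exporter, at 1.28 ± 0.09, the desaturases Scd1 and Scd2 at 0.84 and 0.66 and Abcg1 at -0.39. In iPSC 1 rose and 2 fell, with Apoe at 0.59, Scd1 at -0.67 and Abcg1 at -0.49. Of 14 tested targets of the fatty acid receptors (PPAR) 7 rose and 2 fell in mESC, with Slc25a20 at 1.56 ± 0.19, Cpt1a at 1.06 ± 0.10, Acaa2 at 1.02 ± 0.11 and Ehhadh at -1.03 ± 0.09. In iPSC 3 rose and 3 fell, with Fabp3 at 1.18, Ucp2 at 0.76, Acaa2 at -1.04 and Ehhadh at -1.50.

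Clock genes under REV-ERB and ROR control moved in both directions. In mESC 3 of 12 rose and 6 fell, with Nfil3 at 0.84 ± 0.08, Hlf at -0.90 ± 0.11, Dbp at -0.69 ± 0.06 and Cry1 at -0.53 ± 0.08. In iPSC 5 of 12 rose and 4 fell, with Dbp at 1.35 ± 0.09, Per1 at 1.31 ± 0.11, Ciart at 0.88 ± 0.17 and Cry2 at 0.77 ± 0.11. Of 12 glucocorticoid receptor targets 3 rose and 7 fell in mESC, with Tsc22d3 at -1.24 ± 0.13, Cdkn1c at -1.13 ± 0.18, Mt1 at -0.63 ± 0.07 and Zbtb16 at 0.55 ± 0.10. In iPSC 6 rose and 3 fell, with Cdkn1c at 1.54 ± 0.27, Per1 at 1.31, Zbtb16 at -1.16 and Dusp1 at -1.12.

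Of estrogen receptor targets none of 5 rose and 2 fell in mESC, where Esr1 was not above background, with Myb at -2.07 ± 0.09 and Xbp1 at -0.19. In iPSC 1 of 5 rose and 2 fell in the null-labelled cells, with Greb1, a growth regulator, at -2.20 ± 0.15 (limma adjusted p = 2.1e-06), Xbp1 at -0.63 ± 0.08 and Myb at 2.17 ± 0.13. Of the vitamin D, pregnane and bile acid receptor targets 2 of 3 rose in mESC, Abcb1a (0.87) and Slc51a (0.55), and none of 5 rose and 3 fell in iPSC, Cyp2b10 (-1.96 ± 0.44), Slc51a (-0.80) and Abcb1a (-0.76). Of genes that make, carry or clear ligands 4 of 17 rose and 6 fell in mESC, and 4 of 19 rose and 4 fell in iPSC. Aldh1a3, a retinoic acid synthase, changed by 1.71 ± 0.15 in mESC and was at least 1.16-fold lower in null-labelled iPSC. Dio3 (1.02) and Aldh1a2 (-0.87) also passed in mESC, and Rbp4 (-1.68) and Fabp5 (-1.09) in iPSC.

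Markers of other cell types moved with the groups, and their part in the receptor results was not tested. Over all genes 34.6% were called in mESC and 38.0% in iPSC. All 11 pluripotency markers were tested, of which 4 rose and 2 fell in Tbx3-high mESC, and 2 rose and none fell in null-labelled iPSC. Of 6 neural markers 5 were tested and 5 rose in null-labelled iPSC, at a summed level of 799 to 842% against 310 to 312% in wild type, with Neurog2 not above background in either. Pax6 was not above background in wild type and was tested through the null-labelled arrays alone, so its rise is not read as support. In mESC 4 neural markers were tested, and 1 rose and 2 fell in Tbx3-high cells. Of 10 primitive endoderm markers 9 were tested in iPSC, and 4 fell and 1 rose in null-labelled cells. Their sum lay at 59.2 to 63.3% against 78.5 to 82.3%, with Ttr not above background in either group. Foxa2, Pdgfra and Afp were not above background in null-labelled cells. They were tested through the wild-type arrays alone, so a fall in them is not read as support. In mESC 8 were tested, and 3 rose and none fell in Tbx3-high cells, at 195 to 269% against 150 to 187%. Of 6 trophectoderm markers 4 were tested and 4 fell in Tbx3-high mESC, at 857 to 1087% against 2537 to 2624%, with Elf5 not above background in either group, and in iPSC 2 rose and 2 fell, at 2374 to 2627% against 1759 to 1943%. Of 9 fibroblast markers 4 were tested in mESC, and 1 rose and none fell. The sum lay at 274 to 2757% in Tbx3-high (the upper value on replicate 2) and 248 to 268% in Tbx3-low cells. In iPSC 8 were tested, and 1 rose and 2 fell, at 106 to 109% against 184 to 198%. Of those, Col3a1 and Col6a3 were tested through the wild-type arrays alone and Lum through the null-labelled arrays alone. Lum and Postn were not above background in either mESC group. Of 6 endothelial and blood markers 3 were tested in mESC, and 1 rose and none fell, at 698 to 838% against 615 to 876%. In iPSC 4 were tested, and 1 rose and 1 fell, at 937 to 1067% against 859 to 948%, with Ptprc tested through the wild-type arrays alone.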

How the data were processed

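Total RNA of the 12 samples was labelled with Cy3 and hybridised to Agilent arrays, per the labels. The deposited intensity of each spot came from Agilent Feature Extraction 10.7.3.1, per the file headers, with background subtracted and no scaling across arrays, and probe positions are on mm9. A deposited table of log2 values of the same arrays followed the log2 mean intensity (r of at least 0.9988, medians 6.61 in mESC and 6.58 to 6.59 in iPSC), but its scaling, centring and background treatment are unknown, and it was used for an alternative fit.

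The main setting was log2 of the processed intensity minus log2 of each array's 75th percentile over spots that are no controls, without spots carrying the scanner's outlier flag. Spots of a probe were averaged, and the brightest probe that was well above background on all arrays of at least 1 group stood for a gene. Of 55681 probes, 27741 were named by accession, 3347 by symbol and 300 by synonym in the RefSeq tables of GRCm38.p6, 1771 kept the file's name, and 22522 had no gene name. Group means of all 12 arrays were fitted with limma 3.58.1 in R 4.3.3 (lmFit and eBayes, 8 residual degrees of freedom), and p-values were adjusted by Benjamini-Hochberg over all genes tested, with a threshold of 0.05. A gene was tested where it was well above background on all arrays of at least 1 group compared. Replicate arrays of a group differed by an SD of log2 differences of 0.302 to 0.482, so none was counted as a copy. Tables were made with Python 3.11.15 and pandas 2.3.3. On simulated data with 100 changed genes per size, a change of 1 on the log2 scale was recovered in 81% of genes in mESC and 66% in iPSC, and a change of 0.5 in 48% and 23% (17925 genes). Far fewer genes were changed there than were called in the data, so the adjusted threshold was stricter. These shares do not give the recovery of the reported tests. The mESC and iPSC arrays lie on separate slides, and no test set their levels against each other. The alternatives were other scaling (quantile, percentile over probes), normexp with offset 50, the deposited table, no filter or a stricter one, the mean of a gene's probes, outlier spots kept, the arrays of 1 comparison alone, array weights, replicate or slide-row blocks, single slide rows and each array left out. The percentile over probes was added after the data were seen.

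The receptor genes, the further lists and the markers were chosen with earlier results of these data known. Receptors that passed with a change of at least 0.5, or that were not above background in 1 group, are given array by array, other passing receptors by change and adjusted p, the rest by range and count, and from each further list up to 4 passing genes with the largest change are named. A few genes are not reported here by name, although the counts of the lists include them.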

Additional observations from a re-analysis of the deposited data

Results flagged for a closer look

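Of 60 groups of 4 arrays examined, 2 held an array far from the others by Dixon's criterion, where chance alone gives about 1 in 20. Nr1h3 was highest on Tbx3-high replicate 3, with a gap of 0.835 of the range, and Nr2c1 on Tbx3-high replicate 4, with a gap of 0.934.

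The change with the Tbx3 label differed between mESC and iPSC, by the limma test of the difference, in 8 receptors tested in both. For Nr1h5, not above background in null-labelled cells, it was at most -9.31, an upper limit. It was -1.24 for Vdr, -1.0 for Nr2f1 and -0.93 for Rxra, and 0.58 for Rara, 0.53 for Ppard, 0.47 for Thra and 0.30 for Nr4a1, each on the log2 scale. The calls of Thra and Rara were lost under 14 and 16 of the alternatives and that of Nr4a1 under 17.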

How the results depend on the processing

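Over the 29 calls of single receptor genes, 678 values were recomputed under up to 26 alternatives. In 566 the call and its direction were kept, in 112 the call was lost, and none turned its direction. The call was kept under every alternative run in 10 of the 29. These 10 include the iPSC and the difference calls of Nr1h5 and Esr1. Their null-labelled values are at background, so those kept calls are not read as support. Of results not called, 26 passed under some alternative. The count of called receptors in mESC was 6, and 10 with slide row as a block (4 higher, 6 lower), for which the count over all genes is not given. In slide row 2 alone it was 3, where 3542 genes were called against 5491. Leaving out 1 array at a time gave 4743 to 5519 called genes and 4 (without Tbx3-low replicate 4) to 8 receptors in mESC, 4959 to 6768 genes and 9 (without wild-type replicate 2) to 15 receptors in iPSC, and 4414 to 5723 genes and 6 (without Tbx3-low replicate 2, 3 or 4, null-labelled replicate 1 or wild-type replicate 2) to 8 receptors for the difference. Where 1 array was left in an iPSC group, it was assumed to vary like the other groups. The median log2 change of all genes in iPSC was 0.065 in the main setting, 0.105 with normexp and 0.113 without the filter, and for the difference 0.1, 0.131 and 0.148.

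Blocking on the replicate number (the replicate block), 5635 genes and 7 receptors were called in mESC, 6623 and 13 in iPSC and 5573 and 9 for the difference. In mESC the block added Esr2 (adjusted p = 0.0486), in iPSC it added Esr2 (0.00907) and Rara (0.0218) and ended the calls of Rxrb (0.0613), Ppard (0.065) and Nr6a1 (0.0715), and for the difference it added Nr3c2 (0.0438) and ended Nr4a1 (0.098). Same-numbered arrays correlated at 0.05 to 0.12 in mESC and 0.02 in iPSC, and not every mESC array matched best with its own number, so the arrays share a number and no pairing is taken from it. The 2 arrays of each iPSC group, the 1 slide per cell type and dim probes, which have only bounds, limit what these arrays can show.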
